A study of Mus musculus with 18 samples.

Results

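The genes described here are 10 nuclear receptors, Nr2c1, Nr2c2, Nr5a2, Nr6a1, Esrrb, Rarg, Rara, Rxra, Rxrb and Nr1h2, out of 49 nuclear receptor genes listed for the mouse and 19935 genes that a probe set of the array named alone. They were chosen by gene symbol in the array's annotation, and a gene was represented by the probe set with the highest mean over the embryos among those naming it alone. Each of 9 receptors had 1 such probe set and shared none with another gene, whereas no probe set was listed for Nr1h2, an oxysterol receptor, which was not analysed here. Nr2c2 was chosen with its genotype difference known, so its differences between genotypes, families and single embryos are a description. No p-value is printed for them, and nothing is read from a threshold that Nr2c2 passes below, since its choice fixed that count.

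Single 2-cell embryos were hybridized to Affymetrix Mouse Gene 1.0 ST arrays to ask whether embryos sired by males with altered sperm chromatin differ in gene expression. The 9 Parg(110)-/+ embryos came from natural matings of wild-type females with 3 Parg(110)-/- males, PargA, PargB and PargC, and carried 1 copy of Parg, the gene of the glycohydrolase that removes poly(ADP-ribose), from which exons 2 and 3 are deleted. The 9 WT embryos came from wild-type females mated with 3 wild-type males, WT1, WT2 and WT3. All were on the 129S6/SvEvTac (129SVE) background, each father contributed 3 embryos, and embryos are numbered after their father (PargA-1). Because every Parg(110)-/+ embryo had a Parg(110)-/- father and carried the deletion itself, effects of the father and of the embryo's own genotype cannot be told apart.

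Nuclear receptors are transcription factors that bind DNA through zinc fingers and carry a pocket for small lipophilic ligands such as retinoids, sterols and hormones, although orphan members have no established physiological ligand. Retinoic acid receptors act on DNA as partners of the retinoid X receptors, whereas Nr5a2 and Esrrb can bind as single molecules to extended sites. Nr5a2 is known in the mouse for maintaining Oct4 (Pou5f1) in the early embryo and has been studied as a factor in the activation of the embryonic genome, and Nr6a1 represses Pou5f1 in differentiating cells.

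Values were log2 units after robust multichip average (RMA) processing. Array medians ran from 6.34 to 6.53 and correlations between arrays from 0.924 to 0.958. A probe set is called bright where its mean was at or above 6.47, the median of all probe set means, and dim below it, where RMA compresses differences. Nr2c2, Nr5a2, Nr6a1, Rarg, Rara and Rxra were bright, and Nr2c1, Esrrb and Rxrb were dim. Differences are Parg(110)-/+ minus WT, and levels are compared only within a probe set. Of the 11 oocyte markers, all were bright, at mean levels per embryo of 10.6 to 11.2 in Parg(110)-/+ and 10.7 to 11.2 in WT embryos, while 4 of 10 listed markers of the 2-cell stage could be measured and 3 of these were bright. None of 6 measured blood cell markers was bright (mean levels 5.37 to 5.54 in Parg(110)-/+ and 5.22 to 5.48 in WT embryos). Of the 12 measured markers of cumulus, granulosa and oviduct cells, 4 were bright, and the mean level of all 12 was 6.01 to 6.22 in Parg(110)-/+ and 5.87 to 6.16 in WT embryos. Of the 7 sperm and spermatid markers, 4 were bright, and the mean level of all 7 was 6.09 to 6.28 in Parg(110)-/+ and 5.89 to 6.36 in WT embryos. At an unadjusted p under 0.05, 4 of the 12 cumulus, granulosa and oviduct markers were higher in Parg(110)-/+ embryos (0 under either rescaling, that is equal array medians or a second quantile normalization). Of all probe sets 10.5% passed in either direction, or 1792 and 1820 of 28815 after these rescalings. At the same threshold 1 sperm and spermatid marker was higher, Prm1, with 1 under either rescaling. Of the blood cell markers 1 was, S100a8, with 0 under either rescaling. All 7 sperm and spermatid markers measured higher (5 under either rescaling), as did all 6 blood cell markers (5 under either rescaling). Of all probe sets 67.1% measured higher, or 48.0% and 55.8% after these rescalings. Over the 18 embryos the mean marker level gave r = -0.46 with Nr2c2 for cumulus, granulosa and oviduct cells, -0.36 for blood cells, -0.32 for sperm and spermatids and 0.26 for oocytes, without regard to genotype. The part of these markers in the receptor values was not tested. An array holds a whole embryo, so a lost cell and less RNA in each cell cannot be told apart.

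Nr2c2, the receptor also called TR4 (chr6:92091418-92173058 in GRCm38.p6), is an orphan receptor of direct repeat sites that can repress or activate its targets. Its level was lowest at 9.38, 9.88 at the median and 10.19 at the highest in Parg(110)-/+ embryos, against 10.13, 10.41 and 10.59 in WT embryos. All 9 Parg(110)-/+ embryos lay below the WT mean and 8 of 9 lay below every WT embryo, PargB-1 alone lying inside the WT range. The groups averaged 9.83 ± 0.27 in Parg(110)-/+ and 10.38 ± 0.16 in WT embryos (SD, n = 9 each), a difference of -0.55 ± 0.10 (SE). On the linear scale this is 68.1% of the WT level. The SE takes no account of the choice of Nr2c2 or of siblings sharing a father.

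The lower level of Nr2c2 was shared by all 3 sets of offspring of Parg(110)-/- males. The embryos of PargA measured 9.88, 9.80 and 9.48, those of PargB 10.19, 10.07 and 9.71, and those of PargC 9.38, 9.99 and 9.94. The embryos of WT1 measured 10.23, 10.59 and 10.55, those of WT2 10.41, 10.41 and 10.54, and those of WT3 10.13, 10.20 and 10.36. The father means were 9.72, 9.99 and 9.77 for PargA, PargB and PargC and 10.46, 10.46 and 10.23 for WT1, WT2 and WT3. The highest mean of a Parg(110)-/- father was thus below the lowest of a WT father, as it also was for Nr6a1. How many of all probe sets separate the father means was not counted, and Nr2c2 was chosen for this difference, so nothing is read from it. Against all WT embryos, the offspring differed by -0.66 for PargA, -0.39 for PargB and -0.61 for PargC, each ± 0.14 (SE, n = 3 and 9).

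**Figure D1:**
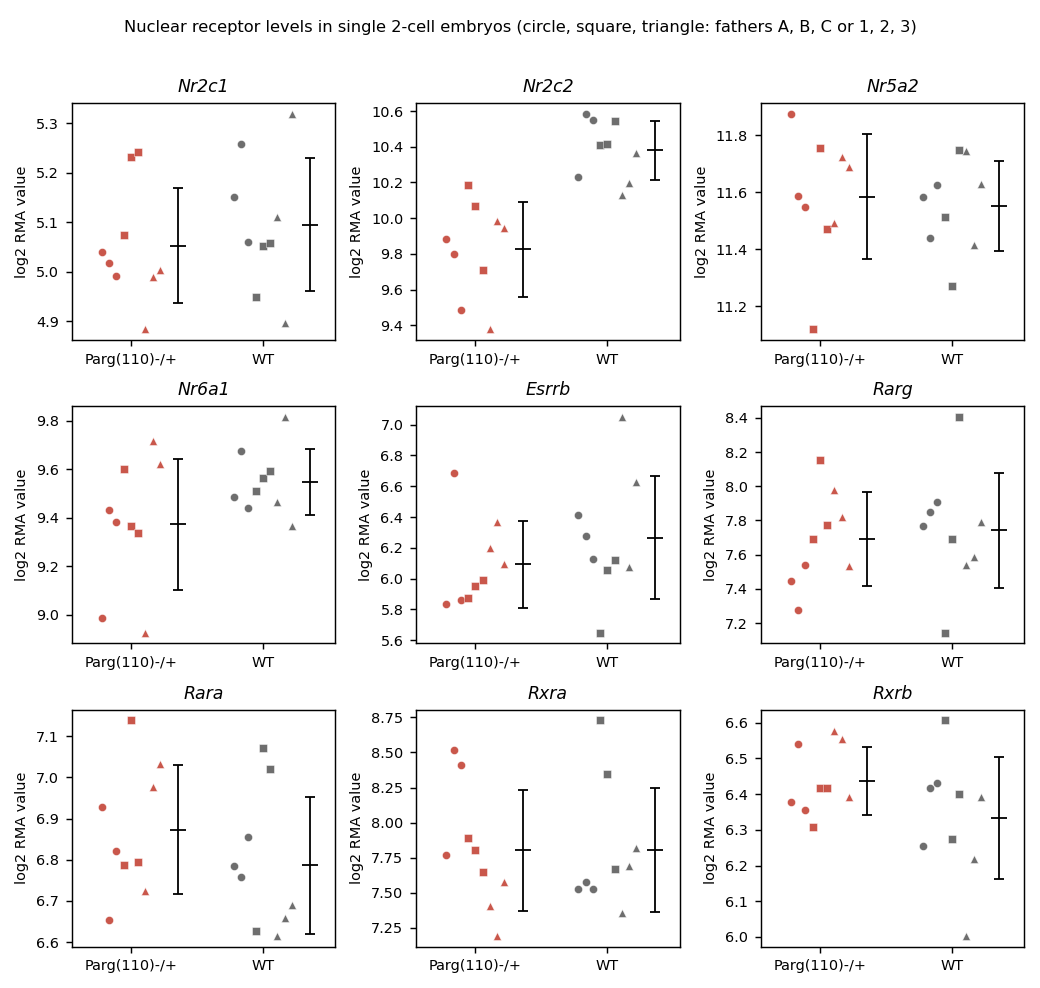
Level of 9 nuclear receptors (log2 RMA value, with a vertical axis of its own in each panel) in Parg(110)-/+ embryos (red) and WT embryos (grey). A point is an embryo, its shape gives the father, and bars give the mean ± SD (n = 9 each). For Nr2c2, 8 of 9 Parg(110)-/+ embryos lie below every WT embryo, and for the other receptors the groups overlap.

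The comparison of single embryos shows which of them carried the lowest Nr2c2 level. PargC-1 differed from the WT embryos by -1.002 ± 0.17 and PargA-3 by -0.90 ± 0.17 (SE, 1 embryo against 9), while PargB-1 differed by -0.20 ± 0.17 and PargB-2 by -0.31 ± 0.17. The counts of calls at an adjusted p under 0.1 are given as a description, since they repeat the values for which Nr2c2 was chosen and each rests on 1 embryo. Nr2c2 was called in PargA-3, where 0.604% of all probe sets were called, and in PargC-1, where 0.76% were called. No other receptor was called in a single Parg(110)-/+ embryo, which makes 2 of 81 comparisons, where 0.865% of all such comparisons over the array were called. Of the 81 comparisons of a receptor in a single WT embryo with the other 8, 0 were called, against 0.731% over the array, where single embryos had 138 to 625 calls and PargB-1 the most. With any 1 WT embryo left out of the baseline, an alternative chosen after seeing the data, PargC-1 was still called, but PargA-3 was called only without WT3-1 or WT3-2.

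None of the 9 measured receptors was called between the genotypes, and neither was any other probe set (0%, adjusted p under 0.1). At an unadjusted p under 0.05, 10.5% of all probe sets passed, and of the 9 receptors 1 did, Nr2c2, which had been chosen for this difference, so nothing is read from the count. With equal array medians 2 did, Nr2c2 and Nr6a1, where 1792 of 28815 probe sets passed, and Nr6a1 differed by -0.23 there. After a second quantile normalization 1 did, where 1820 of 28815 probe sets passed, and Nr6a1 differed by -0.14. No receptor separated the genotypes without overlap, as 0.0104% of probe sets did. Nr2c2 was 1 of 4 probe sets (0.0139%) in which at least 8 Parg(110)-/+ embryos lay below every WT embryo. Nothing is read from this either, since Nr2c2 was selected on the same difference. Among the receptors 3 of 9 measured higher in Parg(110)-/+ embryos, against 67.1% of all probe sets, a share that was 48.0% with equal array medians and 55.8% when quantiles were normalized again. Among bright probe sets it was 2 of 6 receptors against 58.6%. The members' median difference was -0.04, where that of all probe sets was 0.05. After these rescalings it was -0.10 and -0.05 for the members and -0.01 and 0.01 for all probe sets.

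**Figure D2:**
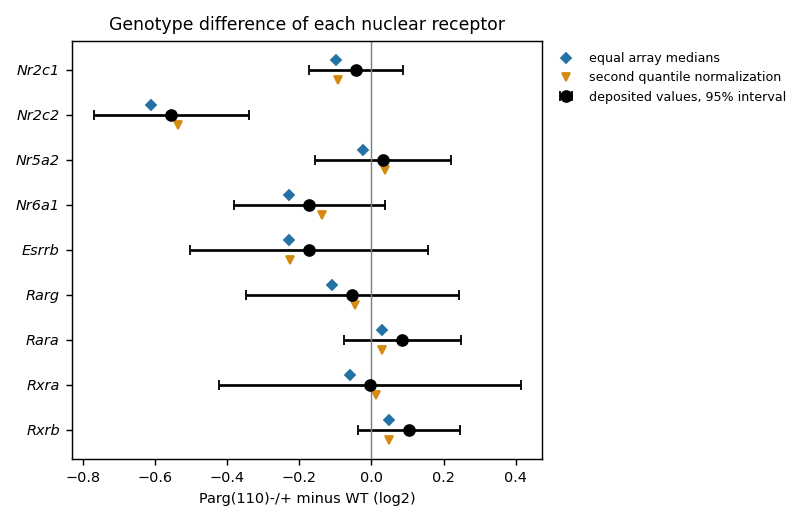
Difference of each receptor between 9 Parg(110)-/+ and 9 WT embryos (horizontal axis, log2) from the deposited values with its 95% interval (black), with equal array medians (blue) and with a repeated quantile normalization (orange). The black points run from -0.55 for Nr2c2 to 0.10 for Rxrb, and the blue point of Nr2c2 is at -0.61. Nr2c2 was chosen with this difference known, so nothing is read from its interval.

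Nr2c1, the closest relative of Nr2c2 and its partner in repressing embryonic globin genes, was dim. It measured 4.88, 5.02 and 5.24 at the lowest, median and highest in Parg(110)-/+ embryos, against 4.90, 5.06 and 5.32 in WT embryos. The groups overlapped almost entirely, with 1 Parg(110)-/+ embryo, PargC-1, below every WT embryo. The difference was -0.04 ± 0.06 (SE, limma adjusted p = 0.808). It was -0.10 with equal array medians and -0.014 without WT3-3.

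Nr5a2, the orphan receptor LRH-1 (chr1:136842562-136960448 in GRCm38.p6), measured 11.12, 11.58 and 11.88 at the lowest, median and highest in Parg(110)-/+ embryos, against 11.27, 11.58 and 11.75 in WT embryos. PargB-1 was the lowest of all 18 embryos and PargA-1 the highest, and the medians of the groups were the same to 2 decimals. The difference was 0.03 ± 0.09 (SE), with a 95% interval of -0.16 to 0.22 and a limma adjusted p of 0.909. Differences inside this interval could not be resolved with 9 embryos a group. Its sign turned with equal array medians, to -0.02. The father means ran from 11.45 in PargB to 11.67 in PargA, against 11.51 in WT2 to 11.60 in WT3.

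Nr6a1, the germ cell nuclear factor GCNF (chr2:38723369-38926461 in GRCm38.p6), is abundant in oocytes and represses Pou5f1 in differentiating embryonic cells of the mouse. It measured 8.93, 9.38 and 9.72 at the lowest, median and highest in Parg(110)-/+ embryos, against 9.37, 9.51 and 9.81 in WT embryos. PargC-1 and PargA-1 stood apart at 8.93 and 8.99, and 4 of 9 Parg(110)-/+ embryos lay below every WT embryo, while 3 lay above the WT mean. The groups averaged 9.37 ± 0.27 and 9.55 ± 0.14 (SD, n = 9 each) and differed by -0.17 ± 0.10 (SE), with a 95% interval of -0.38 to 0.04 and a limma adjusted p of 0.536. This difference was -0.23 with equal array medians, -0.14 after a second quantile normalization and -0.12 without PargC-1. The SD was 1.99 times as large in Parg(110)-/+ embryos as in WT embryos, a ratio that 8.95% of all probe sets exceeded. Father means were 9.27, 9.43 and 9.42 for PargA, PargB and PargC and 9.53, 9.56 and 9.55 for WT1, WT2 and WT3. They did not overlap, and an exact permutation test over the 6 fathers gave p = 0.1 (two-sided), the smallest p that its 20 assignments allow. The same test was run for all 9 receptors, and none can reach 0.05 with 3 fathers a genotype. How many of all probe sets separate fathers or embryos in this way was not counted, so nothing is read from the separation. As single embryos, PargC-1 differed by -0.62 ± 0.15 (limma adjusted p = 0.187) and PargA-1 by -0.56 ± 0.15 (adjusted p = 0.326) from the WT embryos.

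**Figure D3:**
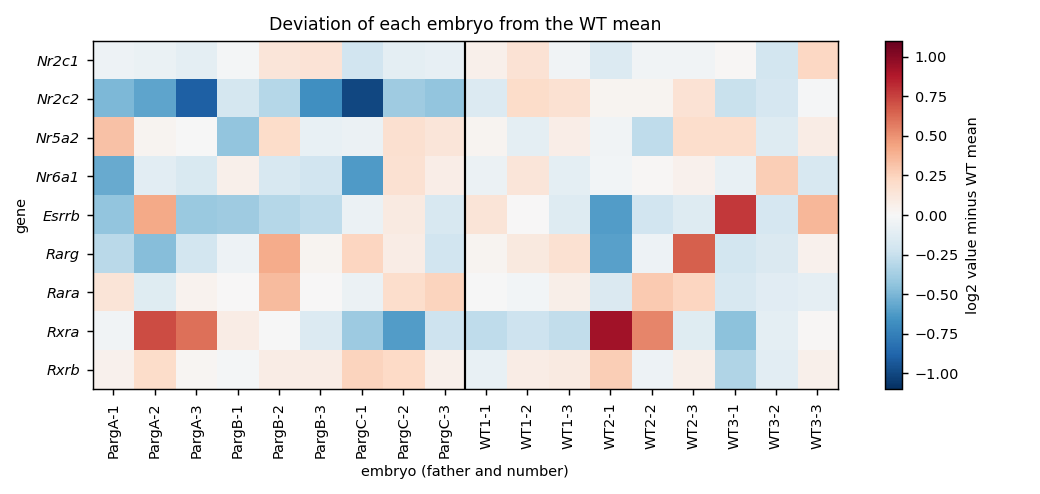
Deviation of each embryo (columns, named by father and number) from the WT mean of each receptor (rows), in log2 units, with the Parg(110)-/+ embryos left of the line and the WT embryos right of it. The Nr2c2 row is below the WT mean in all 9 Parg(110)-/+ embryos, down to -1.002 in PargC-1, and the Rxra row is high in PargA-2, PargA-3, WT2-1 and WT2-2.

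Esrrb, the estrogen-related receptor beta of the pluripotency network, was dim and spread widely. It measured 5.84, 5.99 and 6.68 at the lowest, median and highest in Parg(110)-/+ embryos, against 5.65, 6.13 and 7.05 in WT embryos. WT3-1 was the highest embryo and WT2-1 the lowest, so that the whole range lay among WT embryos. The difference was -0.17 ± 0.16 (SE, limma adjusted p = 0.684), and it was -0.07 without WT3-1.

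Among the retinoic acid receptors, Rarg measured 7.27, 7.69 and 8.15 at the lowest, median and highest in Parg(110)-/+ embryos, against 7.15, 7.77 and 8.40 in WT embryos. WT2 alone fathered both the lowest embryo, WT2-1, and the highest, WT2-3. The difference was -0.05 ± 0.14 (SE, limma adjusted p = 0.902), and its sign turned to 0.03 without WT2-3. It was -0.11 with equal array medians. Rara measured 6.65, 6.82 and 7.14 in Parg(110)-/+ embryos, against 6.61, 6.76 and 7.07 in WT embryos. The groups overlapped, with PargB-2 above every WT embryo, and 7 of 9 Parg(110)-/+ embryos were above the WT mean. The difference was 0.09 ± 0.08 (SE, limma adjusted p = 0.680). It was 0.03 under either rescaling and 0.05 without PargB-2.

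Rxra, the partner of the retinoic acid receptors and of many other receptors, had the widest range of the 9 receptors, over 1.54 log2 units. It measured 7.19, 7.77 and 8.52 at the lowest, median and highest in Parg(110)-/+ embryos, against 7.35, 7.67 and 8.73 in WT embryos. The difference was -0.00 ± 0.20 (SE), with a 95% interval of -0.42 to 0.41 and a limma adjusted p of 0.997, and its sign turned to 0.014 after a second quantile normalization. Within each genotype the mean of 1 father's offspring was higher, and 2 of its 3 embryos carried it. PargA-2 and PargA-3 measured 8.52 and 8.41, while PargA-1, at 7.77, lay below PargB-1 and PargB-2. WT2-1 and WT2-2 measured 8.73 and 8.34, while WT2-3, at 7.67, lay below WT3-2 and WT3-3. PargA offspring averaged 8.23 ± 0.41, against 7.78 ± 0.12 in PargB and 7.39 ± 0.19 in PargC offspring (SD, n = 3 each). WT2 offspring averaged 8.25 ± 0.54, against 7.54 ± 0.03 in WT1 and 7.62 ± 0.24 in WT3 offspring (SD, n = 3 each). The F test across fathers did not pass after adjustment over all probe sets, with a limma adjusted p of 0.879 among Parg(110)-/- fathers (unadjusted p = 0.0125) and of 1.00 among WT fathers (unadjusted p = 0.0213). None of the 9 receptors was called in these F tests, where 0.0104% of all probe sets were called among Parg(110)-/- fathers and 0.00347% among WT fathers. Nor was any receptor called in the offspring of 1 father against all WT embryos, where 0% of probe sets were called for PargA, 0.0139% for PargB and 0.0104% for PargC.

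Rxrb, the more broadly expressed retinoid X receptor, was dim. It measured 6.31, 6.42 and 6.58 at the lowest, median and highest in Parg(110)-/+ embryos, against 6.00, 6.39 and 6.61 in WT embryos. All Parg(110)-/+ embryos lay inside the WT range, and 8 of 9 were above the WT mean. The difference was 0.10 ± 0.07 (SE, limma adjusted p = 0.570), and it was 0.06 without WT3-1, the lowest embryo, and 0.05 under either rescaling.

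Across the 18 embryos, 3 of 36 pairs of receptors had a Pearson r beyond 0.5 in size. These are descriptions, since the points share arrays and the offspring of a father. Nr2c2 and Nr6a1 gave r = 0.56 (Spearman rho = 0.51), with r = 0.60 among the 9 Parg(110)-/+ embryos and r = -0.00 among the 9 WT embryos, and without the 2 embryos farthest from the median of Nr2c2 it was 0.36. Rarg and Rxra gave r = -0.55 (rho = -0.43), with -0.58 in Parg(110)-/+ and -0.53 in WT embryos, and -0.46 without the 2 farthest embryos. Rarg and Rara gave r = 0.51 (rho = 0.38), with 0.43 in Parg(110)-/+ and 0.65 in WT embryos, and 0.33 without the 2 farthest.

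**Figure D4:**
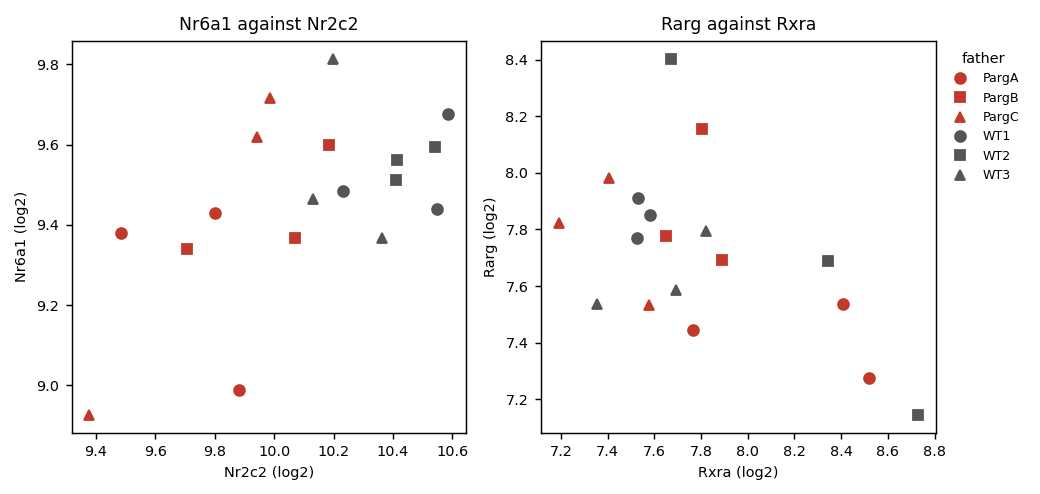
Nr6a1 against Nr2c2 (left) and Rarg against Rxra (right), in log2 units, with a point for each Parg(110)-/+ embryo (red) and WT embryo (grey) and a shape for each father. PargC-1 is lowest in both Nr2c2 and Nr6a1, at 9.38 and 8.93, and WT2-1 combines the highest Rxra, 8.73, with the lowest Rarg, 7.15.

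Genes whose levels ran most like those of Nr2c2 were ranked by Pearson r over the 18 embryos among 11317 bright probe sets that name 1 gene. They were Pspc1, a paraspeckle protein (r = 0.80), Atat1, an acetyltransferase of tubulin (0.75), Prpf18, a splicing factor (0.74), Cyld, a deubiquitinase (0.72), and Wee1, a kinase that restrains entry into mitosis (0.72). All 5 were lower in Parg(110)-/+ embryos, by -0.34 to -0.70, so their r holds the genotype difference. Their r was 0.60 to 0.92 within Parg(110)-/+ embryos and -0.30 to 0.33 within WT embryos. Their Spearman rho ran from 0.57 for Prpf18 to 0.85 for Pspc1. When each embryo was taken as its deviation from its genotype mean, the 5 leading genes were Scaf1 (0.78), Plagl1 (0.77), Senp1 (0.77), Wbp11 (0.76) and Smagp (0.75). None of these was among the first 5, and their rho ran from 0.60 for Wbp11 to 0.84 for Scaf1. In each ranking here the genes named are the highest of 11317 probe sets. The r that such a pick gives by chance was not tested, so no link between genes is read from it. For Nr5a2 the levels most alike were those of Pitpna, a phosphatidylinositol transfer protein (r = 0.89), Ndufaf7, an assembly factor of respiratory complex I (0.87), Snx27, a sorting nexin (0.86), Gtf2h5, a subunit of transcription factor TFIIH (0.80), and Fbl, the nucleolar methyltransferase fibrillarin (0.80). Pitpna, Ndufaf7 and Snx27 also led by deviations, at 0.92, 0.88 and 0.88, followed by Psma2 (0.83) and Mettl16 (0.82). The mean level of the 4 measured markers of the 2-cell stage, which was 7.74 to 10.5 in Parg(110)-/+ and 7.98 to 9.83 in WT embryos, gave r = -0.56 with Nr5a2 and 0.01 with Nr2c2 (n = 18). The oocyte marker mean gave r = -0.42 with Nr5a2. Marker means of cumulus, granulosa and oviduct cells, of blood cells and of sperm and spermatids gave 0.03, -0.10 and 0.01 with it.

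The rest of the nuclear receptor family ran towards higher values in Parg(110)-/+ embryos, where 67.1% of all probe sets were higher. Of 39 other receptors 36 were measured, 14 of them bright, and 32 measured higher and 4 lower, with a median difference of 0.08 against 0.05 over all probe sets. With equal array medians the counts were 26 and 10 and the median 0.02, where 48.0% of all probe sets were higher. After a second quantile normalization they were 27 and 9 and 0.03, where 55.8% of all probe sets were higher. At an unadjusted p under 0.05, 7 of 36 were higher and 0 lower, where 10.5% of all probe sets passed in either direction. Under either rescaling 4 were higher and 0 lower, where 1792 and 1820 of 28815 probe sets passed. After adjustment 0 were called. The smallest p-values were those of Esrra, an estrogen-related receptor of mitochondrial genes (0.20 ± 0.07, adjusted p = 0.375), Nr2f2, the receptor COUP-TFII (0.16 ± 0.05, adjusted p = 0.376), and Nr4a1, an immediate early orphan receptor (0.19 ± 0.06, adjusted p = 0.381).

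Coregulators, the proteins through which receptors act on transcription, stood on both sides of 0, with more of them lower. Of 19 measured among 21, 6 were higher and 13 lower, with a median difference of -0.02, and 0 passed an unadjusted p under 0.05. Of all probe sets 67.1% were higher. Among the bright ones 3 of 15 coregulators were higher, against 58.6% of probe sets. With equal array medians 4 were higher and 15 lower, with a median of -0.07, where 48.0% of all probe sets were higher. After a second quantile normalization 6 were higher and 13 lower, with a median of -0.05, where 55.8% were. The 3 with the smallest p were Med1, the Mediator subunit that receptors bind (-0.39 ± 0.21, adjusted p = 0.511), Lcor, a ligand-dependent corepressor (-0.16 ± 0.11), and Ppargc1a, a coactivator of mitochondrial genes (0.07 ± 0.05). Nr2c2ap, named because its protein binds Nr2c2, measured 6.90 ± 0.41 in Parg(110)-/+ and 7.14 ± 0.84 in WT embryos (SD, n = 9 each), a difference of -0.24 ± 0.30 (SE, adjusted p = 0.767).

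Genes of retinoid handling, which make, carry or degrade the ligands of Rara and Rarg, measured higher in 18 of 19 measured among 20, with a median of 0.09, but 0 passed an unadjusted p under 0.05. Over all probe sets 67.1% were higher and the median was 0.05. Of the 19 genes 11 were dim, and the 8 bright ones were all higher. With equal array medians 13 were higher with a median of 0.03, and after a second quantile normalization 16 with a median of 0.04. Of all probe sets 48.0% and 55.8% were higher after these rescalings. The 3 with the smallest p were the alcohol dehydrogenase Adh7 (dim, 0.13 ± 0.06), the retinaldehyde dehydrogenase Aldh1a3 (dim, 0.10 ± 0.05) and Cyp26b1, which degrades retinoic acid (0.14 ± 0.07). Of 8 sterol genes that oxysterol receptors such as Nr1h2 regulate, 4 were higher and 4 lower, with a median of 0.01, or of -0.05 and -0.03 after these rescalings. Abcg1 and Abca1, which export cholesterol, and Apoe, a carrier of lipids, differed by 0.22 ± 0.07, 0.13 ± 0.05 and 0.37 ± 0.15 (SE), each past an unadjusted p of 0.05 but not after adjustment (adjusted p = 0.362, 0.395 and 0.429). These were 3 of 8, where 10.5% of all probe sets passed, and 2 of 8 passed under either rescaling. Of 8 genes tied to Nr5a2, Nr6a1 or Esrrb in the mouse, 4 were higher and 4 lower, with a median of -0.01. With equal array medians 2 were higher and 6 lower, with a median of -0.06 and 1 lower at an unadjusted p under 0.05, and after a second quantile normalization 3 were higher and 5 lower, with a median of -0.01. Pou5f1 measured 12.06 ± 0.18 in Parg(110)-/+ and 12.22 ± 0.16 in WT embryos (SD, n = 9 each), a difference of -0.15 ± 0.08 (SE, adjusted p = 0.516), Tfcp2l1 differed by 0.11 ± 0.07 and Bmp15 by 0.13 ± 0.15.

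**Figure D5:**
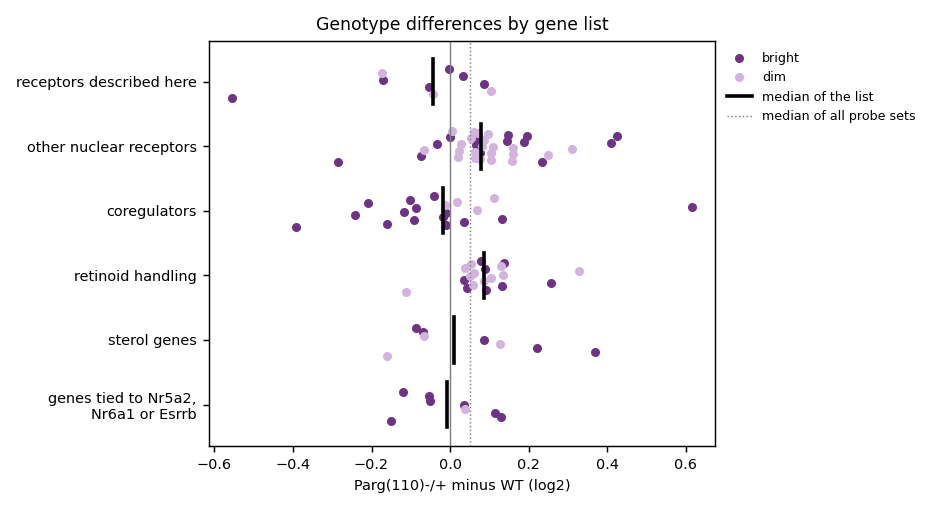
Difference between Parg(110)-/+ and WT embryos (horizontal axis, log2) of each measured gene in 6 lists, with bright genes dark, dim genes pale, a bar at the median of each list and a dotted line at the median of all probe sets, 0.05. The other nuclear receptors have a median of 0.08, and Nr2c2 at -0.55 is the lowest point of the receptors described here.

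Nr5a2 reads an extended site, TCAAGGTCA, and its occurrence was searched on both strands of RefSeq promoters of the GRCm38.p6 assembly, from 250 bases before to 50 after each gene's start. It occurred in 126 of 27025 genes (0.466%) and in 0 of the 10 receptors, over 19 promoters. Of the genes that hold it, 54 had a probe set, of which 43 were higher in Parg(110)-/+ embryos, with a median difference of 0.06, and 11.1% passed an unadjusted p under 0.05. Over all 15612 genes with a promoter and a probe set, 67.4% were higher, the median was 0.05 and 11.0% passed. Of the bright genes, 4 of 26 with the site passed (15.4%), against 10.7% of all 8232 bright genes. Those 4 windows are shown because their genes came nearest to a genotype difference, with the site in capitals and read on the strand given in brackets, and they were chosen after their values were seen.
Myh7b at chr2:155611189-155611213 (-): tgctgttgTCAAGGTCAgcaaagga
Sftpa1 at chr14:41131545-41131569 (-): ctctcttgTCAAGGTCAccctctat
Cd300c2 at chr11:115002033-115002057 (+): actactgaTCAAGGTCAtgctgtga
Atp5g3 at chr2:73911362-73911386 (+): gaagacgcTCAAGGTCActttgtaa

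The 4 genes with these windows were all higher in Parg(110)-/+ embryos, none after adjustment. With bright probe sets fitted alone, 974 of the 1335 that passed an unadjusted p under 0.05 were higher. Nothing is therefore read from the shared direction of genes chosen for passing. Atp5g3, a subunit of the mitochondrial ATP synthase, measured 9.91 ± 0.71 in Parg(110)-/+ and 9.38 ± 0.32 in WT embryos (SD, n = 9 each), a difference of 0.53 ± 0.25 (SE, adjusted p = 0.472). Myh7b, a myosin heavy chain, measured 6.70 ± 0.10 in Parg(110)-/+ and 6.55 ± 0.13 in WT embryos, a difference of 0.14 ± 0.06 (adjusted p = 0.422). Sftpa1, a surfactant protein, and Cd300c2, a receptor of myeloid cells, differed by 0.14 ± 0.06 and 0.15 ± 0.07 (adjusted p = 0.436 and 0.447).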

How the data were processed

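Single 2-cell embryos, 1 to an array, were profiled after RNA amplification on Affymetrix Mouse Gene 1.0 ST arrays. The deposited values are log2 expression values that the authors made with RMA (background correction, quantile normalization, log2 transformation, summarization into probe sets) in Partek. The versions are not given in the sources used here. Quantile normalization can reduce a change that most genes share.

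All 28815 probe sets entered the fit, of which 21780 name 1 gene in the platform annotation, 1605 several and 5430 are not listed. Genotypes (9 against 9 embryos), offspring of each father, fathers within a genotype and single embryos were compared with limma 3.58.1 under R 4.3.3 (lmFit and eBayes, two-sided). The p-values were adjusted by Benjamini and Hochberg's method across the whole table, and a call needs an adjusted p under 0.1, as in the study. A single embryo was assumed to vary like WT embryos (8 residual degrees of freedom). The scripts were tested on simulated data. Embryos of a father are siblings, so p-values over embryos measure the spread between these embryos. Standard errors and p-values outside the exact tests are limma's.

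Named genes were all members, the 3 of each list with the smallest p between the genotypes, and the 5 most like Nr2c2 and Nr5a2 by Pearson r, and Nr2c2ap and genes with a shown promoter site were added after their values were seen. Members and lists were chosen with earlier results of these data known. Alternatives were equal array medians, a second quantile normalization, the methods' one-way test, father as a random block, means per father, the embryo number as a block, bright probe sets only, and leaving out fathers or embryos. Embryo numbers did not pair embryos across genotypes (mean correlation of deviations -0.00 for the same and 0.00 for other numbers). The number of embryos limits the precision. Promoter sequences are from RefSeq.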

Additional observations from a re-analysis of the deposited data

How the results depend on the processing

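Nr2c2 stayed lower in Parg(110)-/+ embryos under every alternative run, by -0.50 to -0.63, and no alternative called it between the genotypes. With the replicate block of the embryo number its difference was -0.55. The alternatives reuse the values for which Nr2c2 was chosen, so its direction in them is a description. Over 13 settings other than leaving out 1 embryo, 106 of 114 differences of a receptor kept their direction and 8 reversed. Equal array medians turned Nr5a2 to -0.0245 and a second quantile normalization turned Rxra to 0.0139. Without father WT2, Rxra was 0.22. Without PargA, Nr5a2 was -0.0108 and Rarg 0.0826. Without PargB, Rxra was 0.00696, and without PargC, Nr2c1 was 0.00442 and Rxra 0.20. Leaving out 1 embryo gave -0.00463 to 0.0899 for Nr5a2, -0.128 to 0.0296 for Rarg and -0.0933 to 0.112 for Rxra, reversing 10 of 162. The cause was not tested. Probe sets called between the genotypes numbered 0, with 3018 at an unadjusted p under 0.05 (3158 by the one-way test, 3002 with the block), 0 to 1 with 1 embryo left out (1 without WT1-3 or PargB-1) and 3 without father WT1. At an unadjusted p under 0.05 there were 1792 with equal array medians, 1820 after a second quantile normalization and 1883 without PargB. Calls of a receptor in single embryos numbered 2, or 3 with equal array medians, 1 after a second quantile normalization, 1 over bright probe sets and 1 to 2 with a WT embryo left out of the baseline. No receptor had other probe sets to compare.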
